A study of Mus musculus with 2 samples.

Results

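Liver and adipose tissue of mice on a normal diet were set against each other through the green channel of a pair of two-colour microarrays. Of the 20886 genes with a probe on the array, the 15664 with at least 1 probe well above background in the normal-diet channel of at least 1 array were kept. No gene was chosen for the difference between the tissues. The mice were wild-type C57BL/6J males that had eaten the normal diet for 4 weeks. Per the labels, 10 livers and 10 adipose tissues were pooled by diet, and each tissue was measured on 1 array, the green dye (Cy3) marking the normal-diet pool and the red dye (Cy5) that of mice on a high-fat diet. Age, the fat depot and whether liver and fat came from the same animals are not given in the sources used here. There is 1 pool and 1 array per tissue, so tissue and slide cannot be told apart, no spread between animals can be had and no test was run.

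Hepatocytes, the main cells of the liver, secrete most plasma proteins, make bile acids, dispose of nitrogen as urea and release glucose between meals. White fat stores triglyceride in large adipocytes, releases it as fatty acids and glycerol, and secretes hormones such as adiponectin and leptin. A piece of fat also holds vessels, fibroblasts, macrophages and often mesothelium, and it can lie against other organs. In bulk tissue, fewer cells of a type and less RNA per cell cannot be told apart.

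Levels are log2 green intensities after both green channels were given the same distribution, and a difference is the liver level minus the adipose level. The median spot signal was 93 on the liver array and 97 on the adipose array, over a median local background of 28 on each, and no spot was saturated. Before normalization the 75th percentile of probe signals was 480.5 in liver and 358.5 in adipose tissue, and the 99th was 38633 and 19831. Giving both channels the same distribution removes this wider gap, so differences of the brightest genes depend on the scaling. Of the kept genes, 12900 were above background on both arrays, 1068 on the liver array alone and 1665 on the adipose array alone. Another 31 had probes of both kinds and were not counted in the lists. For a gene above background on 1 array alone, the dim side was set to a floor, or to its own signal where that was higher; the floor is the dimmest probe called well above background on that array (log2 4.87 in liver, 5.03 in adipose tissue), and its fold is a lower bound. The 254 probes spotted 10 times per array gave a median SD of 0.26 for a difference from 1 spot on each array, which covers the array and not the animals. Most genes rest on 1 probe.

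A gene was called higher in a tissue at 4-fold or more, a difference of 2 on the log2 scale. By that rule 1094 genes (6.98%) were higher in liver and 1553 (9.91%) in adipose tissue, 134 and 411 of them as lower bounds. At 2-fold these numbers were 2708 (17.3%) and 3358 (21.4%), and at 16-fold 372 (2.37%) and 371 (2.37%), or 743 (4.74%) in either direction. Over all genes the median difference was 0.02, and 50.4% were brighter in liver. Shares of list members below are read against these background shares.

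**Figure D1:**
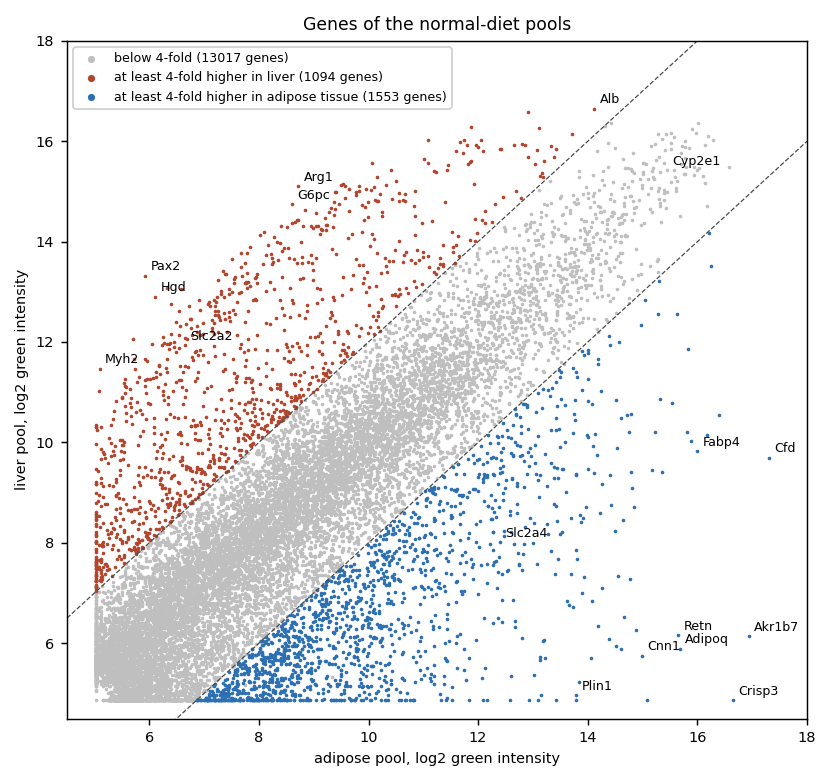
Log2 green intensity of each gene in the adipose pool (x axis) and the liver pool (y axis), 1 point per gene, with dashed lines at 4-fold. The 1094 genes higher in liver (red) lie above the upper line and the 1553 higher in adipose tissue (blue) below the lower one. Points in a row at the left or lower edge are set to the lowest signal above background.

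The labels matched the defining markers of both tissues. Of 32 hepatocyte markers, 27 were called higher in liver and none in adipose tissue, with a median difference of 4.21. All 18 adipocyte markers were called higher in adipose tissue, with a median of -4.87. The hepatocyte markers were not at background in the adipose pool, where 31 of 32 were above it. Their median level there was 11.16, against 15.48 in liver, and the median adipose signal was 5.41% of the liver signal. Among adipocyte markers, 15 of 18 were above background in the liver pool, at a median of 3.45% of the adipose signal. Adipoq, which encodes the hormone adiponectin, was at 5.89 in liver and 15.67 in adipose tissue. Plin1, the perilipin that coats the adipocyte's lipid droplet, was not well above background in liver and lay at 13.79 in adipose tissue.

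The gene with the largest difference toward liver among those above background on both arrays was Pax2, a transcription factor of the developing kidney and urinary tract. Its 1 probe gave 13.32 in liver and 5.93 in adipose tissue, a difference of 7.39 (168-fold). The next was Hgd, homogentisate dioxygenase of tyrosine breakdown, at 12.90 and 6.10 (difference 6.80). Cps1, which opens the urea cycle, was at 13.06 and 6.58 (6.49), and Arg1, the arginase that closes it, at 15.10 and 8.72 (6.38). Most of the next genes also belong to hepatocyte metabolism. Glyat, which conjugates acids with glycine, differed by 6.36. Sds, serine dehydratase, differed by 6.35, and G6pc, which releases free glucose, by 6.13. Ftcd and Uroc1 of histidine breakdown differed by 6.11 and 6.06, and Gckr by 6.10. The other 5 of the 15 largest were Cyp3a57, Etnppl, Ces3b, Gls2 and Cyp4f15, at 5.99 to 6.15. All 15 rest on 1 probe each.

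Toward adipose tissue the differences reached farther. Akr1b7, an aldose reductase relative known from the vas deferens and from fat, was at 6.13 in liver and 16.94 in adipose tissue, a difference of -10.80. Adipoq differed by -9.79 and Retn, the hormone resistin, by -9.48 (6.16 in liver, 15.64 in adipose tissue). Cfd, the serine protease adipsin, was at 9.70 and 17.31 (-7.61). Several others are genes of adipocytes: Sncg (-8.71), Adig (-8.61), Rbp7 (-8.29) and Prkar2b (-7.84), the last a regulatory subunit of protein kinase A. Cnn1 (-9.24) and Actg2 (-8.36) encode contractile proteins of smooth muscle. Phgdh, the first enzyme of serine synthesis, was at 5.66 and 13.14 (-7.48). The remaining ones were Serpina1f, Chst1, Thbs1 and Retnla, at -8.55 to -7.50. Of these 15 genes, 13 rest on 1 probe.

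Genes above background on 1 array alone add lower bounds. On the adipose side the largest was Crisp3, a cysteine-rich secretory protein, at 16.65 in adipose tissue and at the floor in liver, at least 3511-fold. Spink8 came next, at least 1176-fold. Aoc3, an amine oxidase of adipocytes and smooth muscle, was at least 481-fold higher in adipose tissue and Plin1 at least 453-fold. Defb42, Crisp1, Fxyd4 and Glb1l2 followed, at 290.4-fold to 390.1-fold or more. Crisp1 and Defb42 are known as genes of the epididymis. On the liver side the largest bounds were those of the myosin heavy chains Myh2 (at least 82.8-fold) and Myh1 (at least 61.6-fold) of skeletal muscle. Hepatocyte genes among the 8 largest were Slco1a1, a transporter of organic anions (at least 38.9-fold), Nags, which makes the activator of Cps1 (at least 36.7-fold), Aspdh and Nat8f2.

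Genes of amino acid breakdown gave the list with the highest median, 5.18 over 48 measured members. Of these, 39 were higher in liver by at least 4-fold and 1 in adipose tissue. The other urea cycle enzymes lay with Cps1 and Arg1 on the liver side: Otc differed by 5.54, Asl by 5.27 and Ass1 by 4.13. Enzymes that break down histidine (Hal, 5.92), lysine (Aass, 5.74) and tryptophan (Tdo2, 5.37) were all past 4-fold. Glul, which makes glutamine from ammonia, was at 13.14 and 14.06 (-0.92), below the rule. The branched-chain genes Bckdha (0.19), Bckdhb (-0.09) and Bcat2 (-1.57) were below it too.

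All 26 bile acid genes measured were brighter in liver, 23 of them by at least 4-fold, with a median of 4.34. Cyp7a1, the rate-limiting enzyme of the classic route, was at 9.93 in liver and not well above background in adipose tissue, at least 23.3-fold. Cyp8b1, which sets the ratio of cholic to other bile acids, was at 11.66 and 5.73 (5.94). Abcb11, the export pump of the bile canaliculus, differed by 5.49 and Nr1h4, the bile acid receptor FXR, by 5.34. Slc10a1, the sodium-dependent uptake carrier of the hepatocyte, differed by 0.75 only, at 15.91 and 15.16. That value is from 1 probe above background, and with its dim probe included the difference was 3.29.

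Cytochrome P450 genes had a median of 4.84, with 30 of 38 higher in liver and 2 in adipose tissue. The largest in this list was Cyp4f15 (5.99), followed by Cyp2d9 (5.76). Cyp2e1, which oxidises ethanol and other small molecules, was at 15.42 in liver and 15.44 in adipose tissue (-0.01, 2 probes with an SD of 0.74 between them). The genes on the adipose side were Cyp1b1 (5.82 in liver, 10.64 in adipose tissue, -4.82) and Cyp4b1 (-2.09), both known outside the liver. Conjugating enzymes had a median of 2.30, with 21 of 37 higher in liver and 1, the glutathione transferase Gstm2 (-2.23), in adipose tissue. Within that list the glucuronosyltransferases Ugt2a3 (5.70), Ugt3a2 (5.67) and Ugt2b38 (5.60) were farthest toward liver. Members of the Cyp2c, Cyp3a, Ugt2b, Mup and Serpina1 families are close relatives, and a probe can bind more than 1 of them.

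Secreted plasma proteins had a median of 3.84, with 23 of 32 higher in liver and none in adipose tissue. Hrg, histidine-rich glycoprotein, was at 14.43 in liver and 8.69 in adipose tissue (5.74). The chains of the inter-alpha-trypsin inhibitor, Itih3 (5.59), Itih1 (5.49) and Itih2 (5.32), lay close to it. Alb, serum albumin, was at 16.65 and 14.12, a difference of 2.53. Several carriers were nearly as bright in fat as in liver after normalization: transferrin (Trf) at 16.10 and 16.19 (-0.09), selenoprotein P (Selenop, 0.41), retinol binding protein (Rbp4, 0.44) and haptoglobin (Hp, 0.50). With 75th percentile scaling the list median was 4.42, so how near such bright genes lie depends on the scaling. The 8 major urinary proteins measured, pheromone carriers made by male liver, were all brighter in liver, 5 by at least 4-fold. They ran from 0.35 for Mup19 (16.24 and 15.89) to 4.46 for Mup6 (13.27 and 8.81).

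Clotting and complement genes divided between the tissues. Of 30 coagulation genes, 21 were higher in liver and 5 in adipose tissue (median 4.61). Genes on the liver side included zymogens and fibrinogen chains, such as Cpb2 (5.99), F12 (5.71), Klkb1 (5.69) and Fga (5.59). Among those on the adipose side were F13a1 (5.30 in liver, 11.12 in adipose tissue, -5.82), the endothelial receptors Thbd (-5.03) and Procr (-3.39), and Plat (at least 5.60-fold). Complement genes had a median of 1.34 (2.04 with 75th percentile scaling), with 12 of 29 higher in liver. Those of the terminal complex led them, with C8b at 5.92, C8a at 5.64 and Hc, which encodes C5, at 5.62. The only one called on the adipose side was Cfd, which starts the alternative pathway. C3, the central component, was at 16.14 and 15.42 (0.72), and the macrophage-made C1q chains were brighter in fat below the rule (C1qc -1.88, C1qb -1.50, C1qa -1.12).

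Lipoprotein genes lay on both sides. Of 33 measured, 17 were higher in liver and 4 in adipose tissue, with a median of 2.05. Lcat, which esterifies plasma cholesterol, differed by 5.74, Apoa4 by 5.43, Apoa5 by 5.42 and Apof by 5.28. Apob, the scaffold of very low density lipoprotein, was at 14.81 and 10.16 (4.65), and Mttp, which loads it with lipid, at 12.07 and 7.81 (4.26). Toward fat lay Lpl, the lipase that unloads triglyceride at the capillary wall (8.46 in liver, 14.64 in adipose tissue, -6.18), and Gpihbp1, which anchors it there (-2.84). Apod (-4.96) and the sterol exporter Abcg1 (-4.16) lay there too. Apoe was bright in both pools, at 16.03 and 16.28.

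Hepatocyte transcription factors had a median of 3.87, with 14 of 23 higher in liver and none in adipose tissue. Onecut2 was at 11.97 in liver and 6.28 in adipose tissue (5.70). Nr1h4 (5.34) and Foxa2 (5.16) came next. Hnf4a, a nuclear receptor that maintains hepatocyte identity, was at 14.71 and 10.83 (3.88). The C/EBP factors used by both cell types did not pass the rule, with Cebpa at 11.31 and 11.77 (-0.45) and Cebpb at 13.11 and 12.97 (0.14). Among 23 hepatokines and genes of the growth hormone axis, 13 were higher in liver (median 2.18, or 3.31 with the processed signal). Hamp, the iron hormone hepcidin, differed by 5.83, Igfbp1 by 5.49 and Hamp2 by 5.34. Igf1 was at 12.20 and 10.36 (1.84), and the growth hormone receptor Ghr was brighter in fat, at 12.43 and 13.41 (-0.98).

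Adipose tissue was marked by its hormones, but not by every gene called an adipokine. Of 31 adipokine genes measured, 12 were higher in adipose tissue and none in liver, with a median of -1.69 (-0.94 with only probes above background on both arrays). After adiponectin, resistin and adipsin came Sfrp5, a secreted inhibitor of Wnt signalling (5.52 in liver, 12.13 in adipose tissue, -6.61). Lep, leptin, was not well above background in liver and at 8.52 in adipose tissue, at least 12.5-fold. Others shared between the tissues were Rarres2, which encodes chemerin (14.68 and 14.21), Nampt (9.69 and 9.74) and Angptl4 (15.18 and 15.51).

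Transcription factors of fat had a median of -1.58, with 11 of 24 higher in adipose tissue. The median was -0.24 with only probes above background on both arrays and -2.46 with the processed signal. Pparg, the nuclear receptor that drives adipocyte formation, was at 9.47 in liver and 13.55 in adipose tissue (-4.08). Ebf1, at 10.55 in fat and at the floor in liver, was at least 51.4-fold higher, and Aebp1 was at 8.60 and 14.23 (-5.63). Ebf2 and Ebf3 were at least 34.1-fold and 23.1-fold higher. The 1 member on the liver side was Ppargc1a, a coactivator of mitochondrial genes, at 10.11 and 7.81 (2.29). Klf15 (1.71), Mlxipl (1.27) and Rxra (1.25) were brighter in liver below the rule.

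Lipid droplet and lipolysis genes included both directions, 14 of 36 toward adipose tissue and 6 toward liver (median -1.33). The fat cell's machinery lay on one side: hormone-sensitive lipase (Lipe) at 5.85 in liver and 11.04 in adipose tissue (-5.19), Pnpla2, which starts lipolysis, at 12.56 and 15.62 (-3.06), and Adrb3, the catecholamine receptor, at 7.72 and 12.39 (-4.66). The caveolar genes Cavin1 (-5.85), Cav2 (-4.91) and Cavin2 (-4.74) lay there as well. On the liver side were Cideb (12.49 and 7.46, 5.03), Plin5 (3.27), Ces3a (3.73), Faah (3.88), Aqp9 (3.45) and Fitm1 (not well above background in adipose tissue, 9.21 in liver).

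Genes of fatty acid and triglyceride synthesis divided almost evenly, 11 of 42 toward liver and 12 toward adipose tissue, and their median was -0.06. Those toward liver were mostly elongases, desaturases and activating enzymes, with Elovl3 (13.07 in liver, 7.79 in adipose tissue, 5.28), Elovl2 (4.79), Slc27a5 (4.70), Lpin2 (4.69) and Fads2 (2.77). Those toward fat held the uptake receptor Cd36 (9.40 and 14.11, -4.71), the NADPH makers G6pdx (-4.68) and Pgd (-2.55), and Fasn (7.31 and 9.44, -2.13), which assembles palmitate. Scd1, the main desaturase of both tissues, was bright in both at 14.36 and 15.02 (-0.66).

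**Figure D2:**
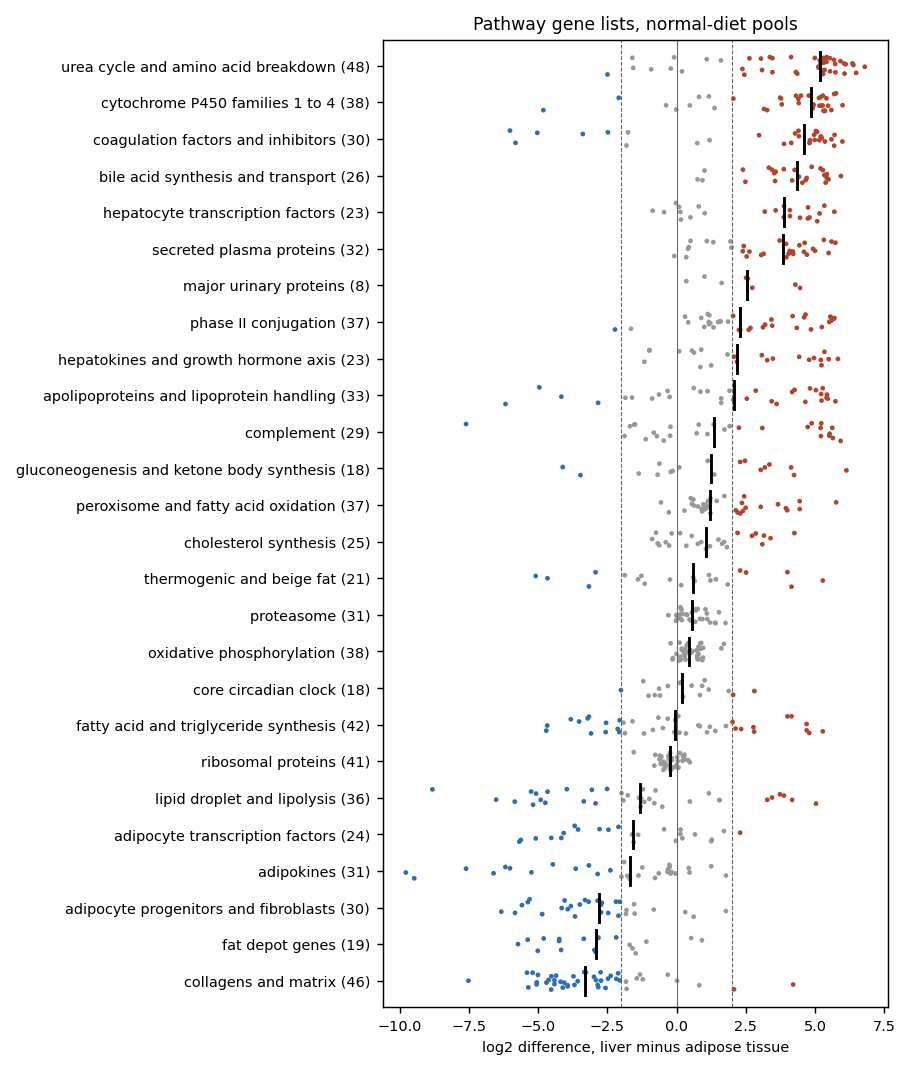
Log2 difference (liver minus adipose tissue) of each measured member of 26 pathway lists, 1 point per gene, with the list's median as a black bar and the number measured in parentheses. Red points are at least 4-fold higher in liver, blue ones at least 4-fold higher in adipose tissue. Medians run from 5.18 for amino acid breakdown to -3.31 for collagens and matrix.

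Fuel handling outside these lists leaned toward liver or differed little. Of 37 genes of peroxisomes and fatty acid oxidation, 14 were higher in liver and none in fat (median 1.21), led by the thioesterases Acot12 (5.76) and Acot1 (4.45) and by Ehhadh (4.44). Of 18 genes of gluconeogenesis and ketone body synthesis, 8 were higher in liver and 2 in fat (median 1.24). Pck1 and Pcx, shared by glucose and glyceride-glycerol synthesis, were bright in both, Pck1 at 15.43 and 15.57 and Pcx at 14.51 and 14.42. Those toward fat were Oxct1 (-4.12) and Aacs (-3.48), which use ketone bodies or acetoacetate. Cholesterol synthesis had 7 of 25 toward liver (median 1.06), with Acat2 (4.25) and Hsd17b7 (3.39) farthest. The thermogenic list had 5 of 21 toward liver and 4 toward fat. Its members on the liver side were Elovl3, Gk (4.15), Slc27a2 (4.00), Mpzl2 (2.51) and Ppargc1a. Those on the fat side were Ebf2, Adrb3, Kcnk3 and Cidea (6.33 and 9.26, -2.93).

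Housekeeping machinery gave no call in either direction. None of 38 genes of oxidative phosphorylation (median 0.46), 41 ribosomal proteins (-0.24) and 31 proteasome subunits (0.55) was past 4-fold, against 6.98% and 9.91% of all genes. The median of ribosomal proteins changed sign with the scaling, from -0.28 to 0.37 over the alternatives, while those of oxidative phosphorylation (0.39 to 1.05) and the proteasome (0.52 to 1.12) stayed above 0. Of 18 clock genes, 2 were higher in liver (Bhlhe40, 2.81, and Hlf, 2.04) and 1 in fat (Per1, 10.66 and 12.68, -2.01). The sources used here do not state the hour of sampling.

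Related enzymes that do the same step in different tissues were compared as 26 pairs, the first named for liver and the second for fat or other tissues. Each gene has its own difference, and no level is set against that of its partner. Both members were measured in 23 pairs. In 9 of them the first was at least 4-fold higher in liver and the second at least 4-fold higher in adipose tissue. In 18 the first was brighter in liver and the second in fat. The pairs were chosen with earlier results of these data known. These counts describe the pairs listed and do not estimate how often such pairs divide.

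The glucose transporter Slc2a2 was at 11.93 in liver and 6.64 in adipose tissue (5.29), and the insulin-responsive Slc2a4 at 8.01 and 12.40 (-4.39). Glycogen synthase divided in the same way, Gys2 at 12.63 and 7.80 (4.83) and Gys1 at 7.10 and 9.94 (-2.84). Phosphofructokinase did not, with Pfkl at -0.27 and Pfkp at -2.61.

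Among lipid genes, the droplet proteins Cideb (5.03) and Cidec (-5.08) lay at like distances on opposite sides, as did the receptors Ppara (4.09) and Pparg (-4.08). The glycerol channels Aqp9 and Aqp7 differed by 3.45 and -3.35. Fabp1 was at 15.68 and 12.90 (2.77), and Fabp4 at 9.83 in liver (difference -6.17). Hepatic lipase (Lipc) was at least 12.2-fold higher in liver, and Lpl differed by -6.18.

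Other pairs did not divide so. The arginase and methionine adenosyltransferase of liver were far on its side (Arg1 6.38, Mat1a 5.41), while Arg2 (at least 3.03-fold toward fat) and Mat2a (-0.21) were below the rule. Both carnitine palmitoyltransferases were brighter in liver, Cpt1a by 3.04 and Cpt1b by 1.22. Acetyl-CoA carboxylase ran against its order, with Acacb, listed first, at 9.09 and 11.14 (-2.06) and Acaca at 7.75 and 8.93 (-1.18). The Acacb value averages 2 probes with an SD of 0.81 between them, and it fell below the rule under 4 of the alternatives, to -1.80 with 75th percentile scaling. Deiodinase Dio1, which activates thyroid hormone, was at 10.99 and 5.56 (5.43), with Dio2 not well above background on either array.

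**Figure D3:**
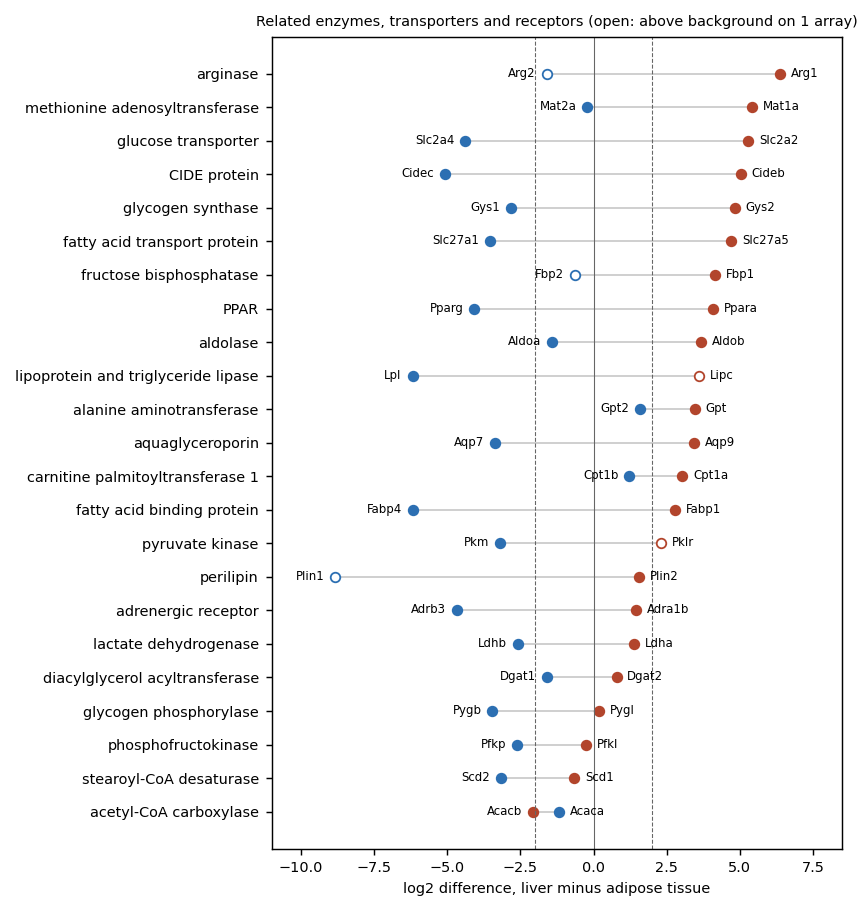
Log2 difference (liver minus adipose tissue) of both members of the 23 pairs measured, the member listed first in red and the second in blue, joined by a grey line. Open circles are genes above background on 1 array, whose difference is a lower bound. In 9 pairs the members lie beyond the dashed 4-fold lines on opposite sides.

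Connective tissue genes lay mostly toward fat. Of 46 collagen and matrix genes, 36 were higher in adipose tissue and 2 in liver, with a median of -3.31. Thbs1 was at 5.70 in liver and 13.22 in adipose tissue (-7.52), the basement membrane protein Nid1 differed by -5.40, and Col3a1 at 8.48 and 13.69 (-5.20). The exceptions were Vtn, the plasma protein vitronectin, at 15.40 and 11.19 (4.21), and Col18a1, the source of endostatin (2.07). Of 30 genes of adipocyte progenitors and fibroblasts, 22 were higher in adipose tissue and none in liver (median -2.79). Mfap5 (-6.33), Gsn (-5.84) and Pi16 (-5.59) were farthest, while the progenitor marker Dpp4 was brighter in liver (1.78).

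Genes that differ between fat depots were read because the labels name no depot. Of 19 measured, 13 were higher in adipose tissue (median -2.93, or -1.94 without the filter on dim probes). Several of the 13, such as Hoxc4, Meox2 and Hoxc9, were above background on the adipose array alone and could only lie toward fat. Of 12 markers of the mesothelium, which covers visceral fat, 8 were past 4-fold toward fat and 2 toward liver (median -2.84). The 2 were the keratins Krt18 (2.26) and Krt8 (2.05), which hepatocytes also make. Toward fat lay Wt1 at 6.24 in liver and 10.48 in adipose tissue (-4.24), Msln at 7.97 and 12.22 (-4.25), and Upk3b at 5.70 and 8.52 (-2.82). The depot and mesothelium lists overlap, with Wt1, Msln, Upk3b and others in both, so their counts are not separate readings. The limb and trunk patterning genes Hoxc6 (-5.73), Hoxc9 (at least 27.9-fold) and Hoxc4 (at least 41.7-fold), known from posterior and subcutaneous fat, were present as well. Tcf21, a gene of visceral fat progenitors, was not well above background in adipose tissue. No depot can be named from these values.

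Vessels and macrophages were read from their own lists. All 18 endothelial markers were brighter in adipose tissue, 10 by at least 4-fold (median -2.15), with Cldn5 at 8.90 and 13.10 (-4.20). Markers of the sinusoidal endothelium of liver were mixed, with 5 of 12 past 4-fold toward liver, 6 of 12 brighter in fat and a median of 0.15 (-0.27 with only probes above background on both arrays). The lectin Clec4g was at 11.97 in liver and 6.37 in adipose tissue (5.60), while Stab1 (-0.91), Kdr (-0.84) and Lyve1 (-0.68) were brighter in fat. Of 24 macrophage markers, 10 were higher in adipose tissue and none in liver (median -1.49), among them Retnla (-7.50), Clec10a (-5.42) and Trem2 (-3.53). Kupffer cell markers had 5 of 10 toward liver, with Clec4f at 10.89 and 5.50 (5.39), Cd5l (4.73) and Vsig4 (3.74), and 1, Folr2 (-2.17), toward fat. Of 12 stellate cell markers, 5 were higher in liver, with Colec10 (4.48) and Colec11 (3.44) farthest, and 1, Des (-2.36), in fat.

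**Figure D4:**
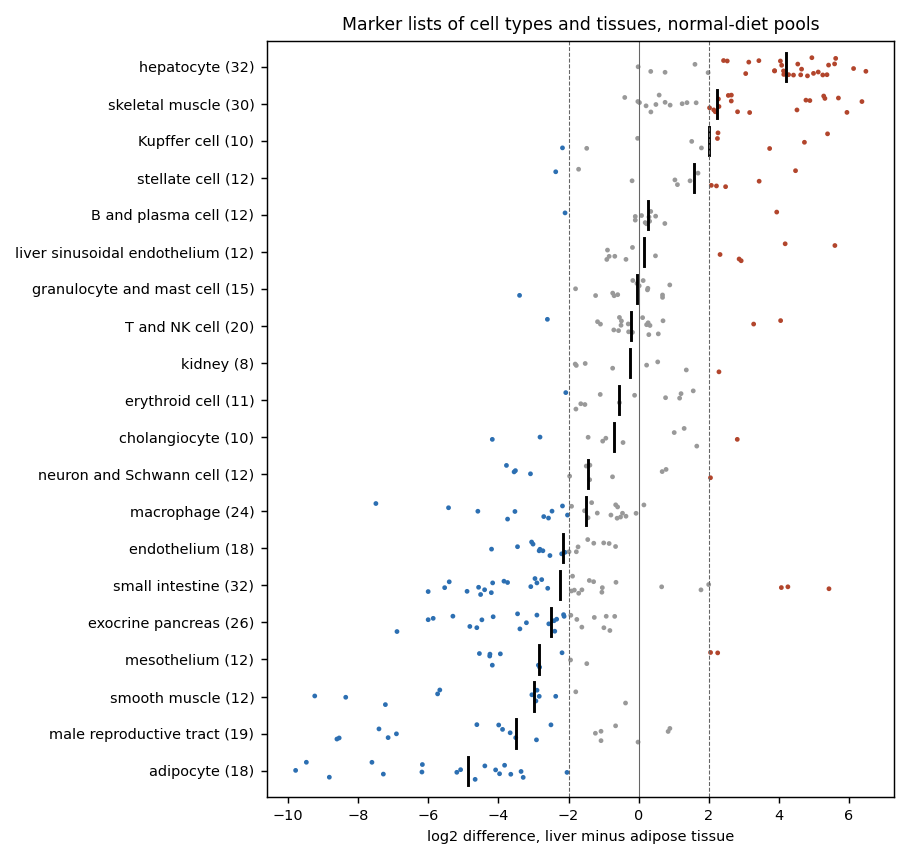
Log2 difference (liver minus adipose tissue) of each measured member of 20 marker lists of cell types and tissues, drawn as for the pathways, with the median as a black bar. Adipocyte markers (median -4.87) lie lowest and hepatocyte markers (4.21) highest, and lists of muscle, pancreas, intestine and male tract also lie away from 0.

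Both pools held RNA of genes typical of tissues the labels do not name. In the adipose pool, markers of smooth muscle were high, with 10 of 12 past 4-fold (median -2.99, or -4.55 with the brightest probe of a gene) and a summed signal of 112223 against 3109 in liver. Markers of the male reproductive tract had 12 of 19 past 4-fold (median -3.51), with summed signals of 73630 and 2053. Of the 19, 7 were above background on the adipose array alone, and without the filter on dim probes the median was -0.49. The sperm protamines Prm1 (6.75 in liver, 13.66 in adipose tissue) and Prm2 (7.10 and 14.25) and Crisp1 (at the floor in liver, 13.41 in adipose tissue) were among them. Markers of the exocrine pancreas had 18 of 26 past 4-fold (median -2.49), with Clps, colipase, at 7.01 and 13.90. Some of the pancreas and smooth muscle calls, such as Zg16, Pnlip and Myh11, were above background on the adipose array alone. The part of these 3 lists in the adipose calls was not tested beyond a count. Without all genes of these lists and of skeletal muscle, small intestine and kidney, 1499 genes were higher in adipose tissue and 1073 in liver.

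Small intestine genes lay on both sides, 16 of 32 toward adipose tissue and 3 toward liver (median -2.25, or -1.48 with only probes above background on both arrays). Toward fat lay Reg3g (at least 46.3-fold), Mep1a (at least 42.3-fold) and Defa3 (at least 29.7-fold). Many of the 16, these among them, were above background on the adipose array alone and could only lie toward fat. Toward liver lay Apoa4, Mttp and Fabp2, of which hepatocytes are known to use the first pair. Skeletal muscle was read in the liver pool instead, with 18 of 30 markers past 4-fold toward liver and none toward fat. The median was 2.23, or 1.86 without background subtraction. Several of the 18, among them Myh2, Myh1, Ckmt2 and Myh7, were above background on the liver array alone and could only lie toward liver. Mb, myoglobin, was at 11.26 in liver and 5.56 in adipose tissue (5.70), Tcap at 11.17 and 6.29 (4.89), and Tnni2 at 13.05 and 8.27 (4.77). Summed muscle marker signals were 45436 in liver and 15233 in adipose tissue. The part of these tissues in genes outside their lists was not tested.

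Promoter sequence was used as a feature that the arrays do not measure. RefSeq promoters of GRCm38.p6, from 250 bases before to 50 after the start site, were at hand for 847 of the genes higher in liver and 1162 of those higher in adipose tissue. For each gene the promoter listed first was searched on both strands. The motif CAAAGTCCA, part of the site bound by HNF4A, is shown because its share in the first set below stood at the highest ratio to that of all promoters. It was found in 12 of 294 promoters of genes at least 16-fold higher in liver (4.08%) and 1.89% of all genes higher in liver. The share was 0.430% of genes higher in adipose tissue, 0.483% of genes above background and 0.477% of all 27025 promoters. Of these 12 genes, 7 are cytochrome P450 genes, and relatives share sequence, so the 12 are not independent.

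In 10 of the 12 promoters the motif lies before the start site. The windows below run 5′ to 3′ on the strand of the gene, with the motif in capitals, 30 bases on either side where they end before the start site, and nothing past it. Tlcd4 carries the motif on the opposite strand. Each lies directly upstream of the named gene, in the order printed at chr9:121916334-121916402 (minus strand), chr5:145879925-145879993 (minus), chr5:145469784-145469852 (minus), chr5:145584787-145584855 (minus), chr19:39649129-39649197 (minus), chr19:39741140-39741208 (minus), chr19:40187312-40187380 (minus), chr15:10358482-10358532 (plus), chr7:44465353-44465421 (plus) and chr3:121263349-121263417 (minus).
Cyp8b1: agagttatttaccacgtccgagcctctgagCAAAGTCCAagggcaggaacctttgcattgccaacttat
Cyp3a11: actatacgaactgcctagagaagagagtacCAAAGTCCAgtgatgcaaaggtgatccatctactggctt
Cyp3a16: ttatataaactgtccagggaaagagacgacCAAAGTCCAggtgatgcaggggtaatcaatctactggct
Cyp3a41b: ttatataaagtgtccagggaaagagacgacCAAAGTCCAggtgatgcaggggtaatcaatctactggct
Cyp2c67: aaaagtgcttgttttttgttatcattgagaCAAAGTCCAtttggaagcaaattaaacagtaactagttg
Cyp2c68: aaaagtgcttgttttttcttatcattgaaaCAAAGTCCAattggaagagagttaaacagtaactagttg
Cyp2c70: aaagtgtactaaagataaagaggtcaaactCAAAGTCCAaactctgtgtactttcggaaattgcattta
Agxt2: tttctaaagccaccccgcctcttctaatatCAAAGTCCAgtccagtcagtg
Aspdh: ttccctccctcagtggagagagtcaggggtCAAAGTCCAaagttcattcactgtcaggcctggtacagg
Tlcd4: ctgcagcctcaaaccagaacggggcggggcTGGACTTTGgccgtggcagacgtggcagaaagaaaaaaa

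These genes are at least 16-fold higher in liver by the choice of the set. Cyp8b1 was at 11.66 in liver and 5.73 in adipose tissue, Cyp3a11 at 16.03 and 11.08, and Cyp2c68 at 13.35 and 7.38, a difference of 5.97. Agxt2, a mitochondrial aminotransferase, differed by 5.29 and Tlcd4 by 5.13. Cyp3a16 and Cyp3a41b have nearly the same window, as do Cyp2c67 and Cyp2c68. Other short motifs were searched in the same way, and their shares overlap since 1 promoter can hold several. TTGCNNAA, a loose C/EBP site, was in 19.0% of promoters of genes at least 16-fold higher in liver, 9.45% of those at least 16-fold higher in adipose tissue and 10.8% of all promoters. ATTGAT, a core of the HNF6 site, was in 13.3%, 6.91% and 7.76%, and TGTTTAC, the forkhead core bound by FOXA proteins, in 6.80%, 2.18% and 3.55%. TATAAA was in 22.1%, 15.3% and 14.2%. Full direct repeats of the kind bound by PPAR dimers were in none of the 294 liver promoters and in 12 of all. A partial direct repeat was in 6.46%, 5.82% and 2.92%. Among genes above background, from which the called genes come, the shares were 9.27% for TTGCNNAA, 4.66% for ATTGAT and 2.69% for TGTTTAC. They were 9.51% for TATAAA and 2.83% for the partial repeat. The promoters differ in base composition, with a median GC content of 50.3% for genes at least 16-fold higher in liver, 56.0% for those in adipose tissue, 59.3% for genes above background and 52.7% for all promoters, and several of these motifs are rich in A and T. A match is a run of letters and no site of binding.

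The red channels of the same arrays hold the pools of mice on the high-fat diet, other animals on the same slides, and were processed in the same way. Between them 1406 genes (8.55%) were at least 4-fold higher in liver and 2272 (13.8%) in adipose tissue, of 16446. Of the 1094 genes higher in liver on the normal diet, 909 (83.1%) were past 4-fold the same way and 1 the other way. Of the 1553 higher in adipose tissue, 1260 (81.1%) were past it the same way and none the other way. Since tissue and slide are the same in both, this does not show stability across arrays.

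The size of the difference was not alike in the green normal-diet and red high-fat channels. No dye was swapped, so diet and dye cannot be told apart in any value that sets the channels side by side. Hepatocyte markers had a median of 4.21 on the normal diet and 7.86 on the high-fat diet, and their median adipose signal was 5.41% and 0.432% of that in liver. Albumin differed by 2.53 and 7.01. Plasma proteins had medians of 3.84 and 8.11, and major urinary proteins of 2.54 and 8.44. Toward liver 16 genes were past 64-fold between the normal-diet pools and 280 between the high-fat pools, and toward adipose tissue 67 and 214. Adipocyte markers had medians of -4.87 and -5.80.

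The 280 genes at least 64-fold higher in liver between the high-fat pools had a median of 5.19 between the normal-diet pools, with an interquartile range of 4.46 to 5.56. Their normal-diet adipose level followed their liver level. For the 47 with a liver level of 12 to 13 the median adipose level was 7.14 and the median difference 5.45, for the 45 at 14 to 15 they were 9.31 and 5.22, and for the 35 at 15 to 16 they were 11.43 and 4.14. The 9 at 16 or above had a median adipose level of 13.12 and a difference of 3.14. The bins of highest liver level had the smallest normal-diet differences. The normalization lowers liver minus adipose differences at the bright end: the major urinary protein median was 2.54, and 3.25 with 75th percentile scaling. Its part in these bins was not tested. The genes were chosen by their high-fat difference, so their low high-fat adipose levels and larger high-fat differences follow from that choice and are not set against these. Where these liver transcripts in the normal-diet adipose channel came from was not tested.

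Lists of other tissues differed between the channels too. Small intestine markers had a median of -2.25 on the normal diet and -7.70 on the high-fat diet, while those of the male tract had -3.51 and -1.91, smooth muscle -2.99 and -3.07, and skeletal muscle 2.23 and 3.39. List members above background on 1 array alone could only lie toward that array's tissue. Fabp2, the fatty acid binding protein of the gut, was the gene past 4-fold in opposite directions. Its 1 probe read 14.14 in liver and 10.07 in adipose tissue on the normal diet, and 16.51 and 18.73 on the high-fat diet.

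**Figure D5:**
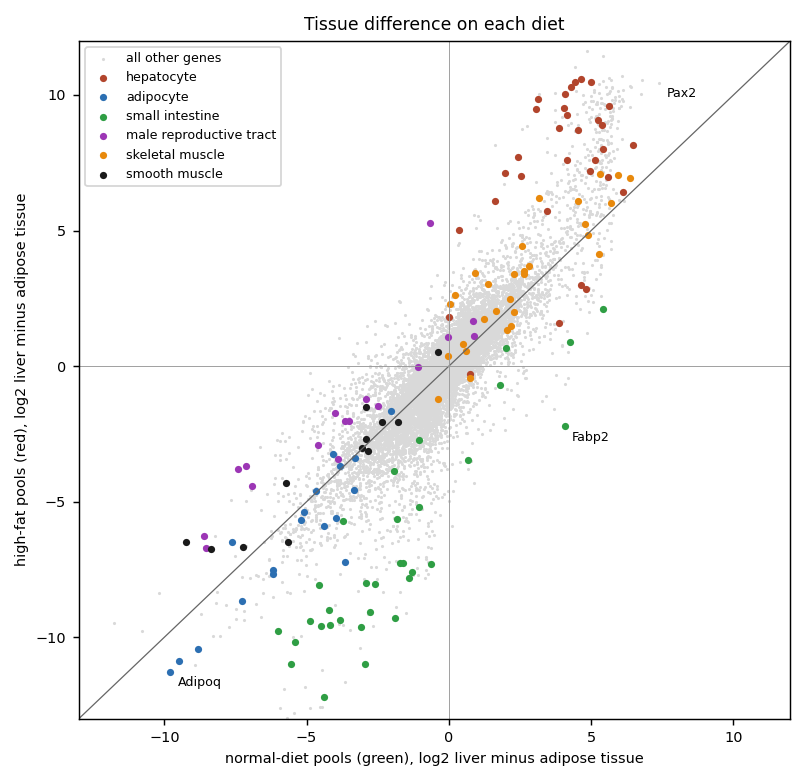
Log2 difference (liver minus adipose tissue) between the normal-diet pools (x axis) and between the high-fat pools (y axis), 1 point per gene, with 6 marker lists in colour and the line of equal differences. Hepatocyte markers lie above the line (medians 4.21 and 7.86) and small intestine markers below it (-2.25 and -7.70). Both axes come from the same 2 arrays.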

How the data were processed

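RNA pools of liver and adipose tissue were read on 2 Agilent arrays. The deposited intensity values are scanner output of 44397 spots per array, not normalized, made with Agilent Feature Extraction 11.5.1.1 per the file headers (the submitters' processing notes name 8.5.1.1). The deposited green median intensity minus the median local intensity around the spot was used. Local backgrounds marked as outliers (665 in liver, 406 in adipose tissue) were set to the array median, and marked spots were left out. Spots of a probe were averaged, the green channels quantile normalized, values below the lowest signal well above background raised to it, and probes of a gene averaged on the log2 scale (Python 3.11.15, pandas 2.3.3). Of 39429 probes, 27508 matched 1 gene of RefSeq through their accession. The steps were tested on simulated data built from the liver array, with known changes in bright genes only. Both simulated arrays had the same genes above background, so the lower bounds were not tested. The normexp alternative used limma 3.58.1 in R 4.3.3. The red channels were treated in the same way. Precision is limited by having 1 array a tissue, and a fixed rule of size (4-fold) replaced a test.

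Named were the 15 largest differences and 8 largest bounds each way, the 4 farthest members of each list and those past 4-fold against its median, the pairs shown, and hepatocyte and adipocyte markers. Other members were named after their values were seen. Members, lists, pairs and motifs were chosen with earlier results of these data known. The 11 alternatives run are given with their effect in the closing section. Some genes and pairs are not reported here.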

Additional observations from a re-analysis of the deposited data

Results flagged for a closer look

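The liver minus adipose difference of Fabp2 was 4.07 between the normal-diet pools and -2.22 between the high-fat pools, opposite directions in the only sample of each kind. The difference between the diets was not tested, since each value rests on 1 probe and 1 pool per tissue.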

How the results depend on the processing

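The counts of genes at least 4-fold higher in liver (1094) and in adipose tissue (1553) stayed within 1.5 times under 11 other settings and under 1 chosen after seeing the data, which leaves out marker genes of other tissues. They ranged from 890 and 1183 with normexp to 1479 and 2200 with the scanner software's processed signal. Of the 1094, 973 were also called with the medians of shared genes set equal, as were 1486 of the 1553. That scaling put the median over all genes at -0.17 and leaving out the filter on dim probes at -0.12, so differences near 0 have no settled direction. List medians kept their side of 4-fold in 485 comparisons with another setting, fell below it in 18 and passed it in 3. The median of the male tract list was -0.49 without the filter. No value past 4-fold changed its direction. Of the named genes, values fell below 4-fold in 46 comparisons and passed it in 36, with Car3, Cyp4b1, Gstm2 and Per1 among those below it under 75th percentile scaling. Scaling on the E1A control probes was not run, because they lay at the level of the negative controls (medians of 25 and 29 against 20.5 and 24). No paired analysis was possible because each tissue has 1 array. Dim genes are limited by the signal over background: 134 liver calls and 411 adipose calls are lower bounds.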

Other observations

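The lymphocyte, granulocyte and mast cell lists held no larger share past 4-fold than the 16.9% of all genes in either direction. Nerve genes lay mostly toward fat. Of 20 T and NK cell markers measured, 2 were at least 4-fold higher in liver and 1 in adipose tissue, with a median of -0.23. The 2 were Zap70, a kinase of the T cell receptor (10.51 in liver, 6.45 in adipose tissue), and Cd4 (13.18 and 9.90), while Cd3e, a chain of the receptor itself, was at 8.96 and 8.73. Cd4 fell to 1.98 without the filter on dim probes. Of 12 B and plasma cell markers, Sdc1 (11.86 and 7.92), a proteoglycan that hepatocytes also make, was past 4-fold toward liver and Jchain (6.95 and 9.05) toward fat. Of 15 granulocyte and mast cell markers, the mast cell protease Mcpt4 (5.30 and 8.70) was past it toward fat.

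The haemoglobin genes were all brighter in adipose tissue, Hbb-bt at 13.22 in liver and 15.30 in adipose tissue and Hba-a2 at 15.48 and 16.58, with 1 of 11 erythroid markers past 4-fold. Other erythroid markers were brighter in liver: Klf1 (not well above background in adipose tissue, 6.59 in liver), Alas2 (1.21), Car2 (1.17) and Car1 (0.77). The rest, Rhag (-0.55) and Slc4a1 (-0.11), were brighter in adipose tissue, and the list median was -0.55. Of 12 nerve and Schwann cell markers, 4 were higher in adipose tissue and 1 in liver, with S100b at least 13.6-fold higher in adipose tissue and Prx at 5.40 and 8.95. Cholangiocyte markers lay on both sides, with Spp1 at least 7.04-fold higher in liver and Krt19, which mesothelium also makes, at 6.77 and 10.95. Of 8 kidney markers measured, only Pvalb, also a muscle gene, was past 4-fold (9.07 and 6.78), and the other 7 were below it, while Pax2 differed by 7.39.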
